A study of Mus musculus with 95 samples.

Results

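The 9 genes described here write, maintain or remove DNA methylation: Dnmt1, Dnmt3a, Dnmt3b, Dnmt3l, Uhrf1, Tet1, Tet2, Tet3 and Tdg. They were taken by name from a table of 23377 genes, and all 9 passed the filter on low counts that left 15464 genes for testing. The study profiled E14 mouse embryonic stem cells, a feeder-free pluripotent line, by RNA-seq and by ChIP-seq, which maps proteins and histone marks on DNA. Every group was kept in medium with serum and LIF (leukemia inhibitory factor), to which inhibitors of the kinases GSK3 and MEK were added. The RNA-seq groups were wild-type, Pcgf1-/-, Pcgf2/4-/-, Pcgf3/5-/-, Pcgf6-/-, Pcgf1/2/4-/- and Pcgf3/5/6-/-, with 2 libraries each. Knockouts were made with Cas9 and picked as clones, double and triple knockouts by further editing of single-knockout clones. The column names of the count table show 1 clone for each knockout genotype, so genotype and clone cannot be told apart, and nothing says that the 2 libraries of a group came from separate cultures. The p-values therefore measure only the spread between these libraries, which may be technical. PCGF6 ChIP-seq in cells labelled Ring1a-/-_Ring1bfl and Ring1a/b-/- is also used, and the protocols name a conditional line with floxed Ring1B, Ring1A already deleted and CreERT2 at Rosa26. ChIP-seq was deposited as 1 peak list per antibody and genotype, apart from the second RING1B and H2AK119ub1 lists for Pcgf1/2/4-/-, so differences between peak lists have no replicate check and no test. DNA methylation itself was not among the data used here.

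DNMT3A and DNMT3B place methyl groups on unmethylated CpG dinucleotides, and DNMT3L, which has no catalytic activity, helps them do so. UHRF1 binds hemimethylated CpG after replication and brings in DNMT1, the enzyme that copies the pattern to the new strand. TET1, TET2 and TET3 oxidise 5-methylcytosine, and TDG cuts out the oxidised bases so that base excision repair can restore cytosine. PCGF proteins define the variants of Polycomb repressive complex 1, whose RING1A/B subunits place ubiquitin on histone H2A (the mark H2AK119ub1). PCGF2 and PCGF4 (the product of Bmi1) form the canonical complexes, PCGF1 works with the CpG island reader KDM2B, and PCGF6 works with MGA and E2F6 at germline genes. SUZ12 belongs to Polycomb repressive complex 2, which places H3K27me3. H3K4me3 marks the starts of active genes, and H3K36me3 marks transcribed gene bodies and is bound by the PWWP domains of DNMT3A and DNMT3B.

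Library totals ran from 2147968 to 7848161 counts. Levels are given as CPM, the counts of a gene scaled to a common library size after TMM adjustment, and adjusted p-values come from edgeR's quasi-likelihood test, fitted to all 14 libraries, with Benjamini-Hochberg adjustment over the 15464 genes and a threshold of 0.05. Replicates differed by more than sampling noise in the knockouts (chi-square per degree of freedom 1.18 to 19.5, highest in Pcgf2/4-/- and, at 10.1, Pcgf1-/-). In wild-type the counts of both libraries agreed within sampling noise (0.958). They were kept as 2 libraries because the labels list 2, and each call was repeated with them summed to 1 sample. Pcgf6 had 0 counts in both Pcgf6-/- libraries, and Pcgf1 fell to 4.01 CPM in Pcgf1-/- and 0.719 CPM in Pcgf1/2/4-/- from 63.6 CPM in wild-type. Pcgf6 was at 37.2 and 42 CPM in the libraries labelled Pcgf3/5/6-/- against 34.3 and 36.2 in wild-type, so its transcript does not check that label, and those libraries are named by their label throughout. The transcripts of Pcgf2 and Bmi1 were not lowered in Pcgf2/4-/- (log2 differences of 0.10 and -0.18), nor was Pcgf3 called in Pcgf3/5-/- (-0.40), while Pcgf5 fell by 1.22 there (adjusted p = 0.00175). Pcgf5 was lowered as much where it was not targeted, in Pcgf1-/- (-1.28, adjusted p = 0.00071) and Pcgf2/4-/- (-1.17, adjusted p = 0.00318). Its fall therefore does not check the Pcgf3/5-/- label. None of the 3 target transcripts was lowered in the libraries labelled Pcgf3/5/6-/- (Pcgf3 -0.23, Pcgf5 0.33, Pcgf6 0.17). The embryonic stem cell markers were present in every group, with a summed level of 2440 to 2450 CPM over 10 genes in wild-type, 2130 to 2290 in Pcgf6-/- and 1970 to 4120 over all 6 knockouts. Of these 10, 5 rose and 0 fell in Pcgf1/2/4-/- (14.4% and 22.6% of all genes). In Pcgf6-/- 2 rose and 1 fell (27.8% and 18.6%), and in the libraries labelled Pcgf3/5/6-/- 2 rose and 2 fell (28% and 25.3%). In Pcgf1-/- 1 rose and 2 fell (13.9% and 18.4%), in Pcgf2/4-/- 2 and 0 (8.1% and 13.5%), and in Pcgf3/5-/- 1 and 0 (11.1% and 10.4%).

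In wild-type cells the maintenance pair led the set when levels were divided by exonic length. Uhrf1 stood at 113 CPM per exonic kb and Dnmt1 at 68.2, followed by Dnmt3l at 60.9, Tet2 at 33.5, Dnmt3b at 29.8 and Tet1 at 24.1. Dnmt3a at 2.16, Tet3 at 1.30 and Tdg at 0.672 CPM per exonic kb were far below the others. These values use the union of annotated exons, so a gene with many annotated isoforms such as Dnmt3a (18 transcripts, 16.6 kb of exon) is set low by its length. Some counts are uncertain. Tdg has copies elsewhere in the genome, of which one matches 86.4% of its transcript at 98.6% identity and another 83.8% at 99.3%, and a copy of Uhrf1 on the X chromosome matches 71.8% of its transcript at 97.8%. Dnmt3l overlaps exons of Aire, Tdg those of Glt8d2 and Dnmt3a those of Gm10485, each on the opposite strand, and whether the counting used strand is not given in the sources used here.

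Against wild-type, Dnmt3a was called in 5 of the 6 knockouts, Dnmt3b, Tet1 and Tet3 in 4 each, Dnmt3l and Tet2 in 3 each, and Dnmt1, Uhrf1 and Tdg in 1 each. Of the 9 genes, 2 were called in Pcgf1-/- (Dnmt3a and Tet3, both raised), where 32.3% of all genes tested were called. In Pcgf2/4-/- 6 were called (Tet2 raised; Dnmt3a, Dnmt3b, Dnmt3l, Tet1 and Tet3 lowered), where 21.6% of all genes were called, 8.1% raised and 13.5% lowered. In Pcgf3/5-/- 4 were called (Dnmt3a and Tet3 raised; Dnmt3b and Tet1 lowered), beside 21.6% of all genes, 11.1% raised and 10.4% lowered. In Pcgf6-/- 5 were called (Dnmt3a raised; Dnmt3b, Tet1, Tet2 and Tdg lowered), beside 46.5% of all genes. In Pcgf1/2/4-/- 4 were called (Dnmt3b, Dnmt3l and Uhrf1 raised; Dnmt1 lowered), beside 37% of all genes. In the libraries labelled Pcgf3/5/6-/- 5 were called (Dnmt3a, Dnmt3l and Tet3 raised; Tet1 and Tet2 lowered), beside 53.3% of all genes. Only 9 genes stand behind each share. With the wild-type libraries summed to 1 sample, 8 of the 26 calls were lost: Dnmt3b, Tet1 and Tet2 in Pcgf2/4-/-, Tet1 and Tet3 in Pcgf3/5-/-, Tet2 in Pcgf6-/-, and Dnmt1 and Uhrf1 in Pcgf1/2/4-/-. Leaving out either wild-type library left 0 or 1 of the 9 called in Pcgf1-/-, 3 in Pcgf2/4-/-, 2 in Pcgf3/5-/-, 3 in Pcgf6-/- and 2 in Pcgf1/2/4-/-. All 6 comparisons share the same 2 wild-type libraries, so their values are set side by side and not counted as separate support.

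**Figure D1:**
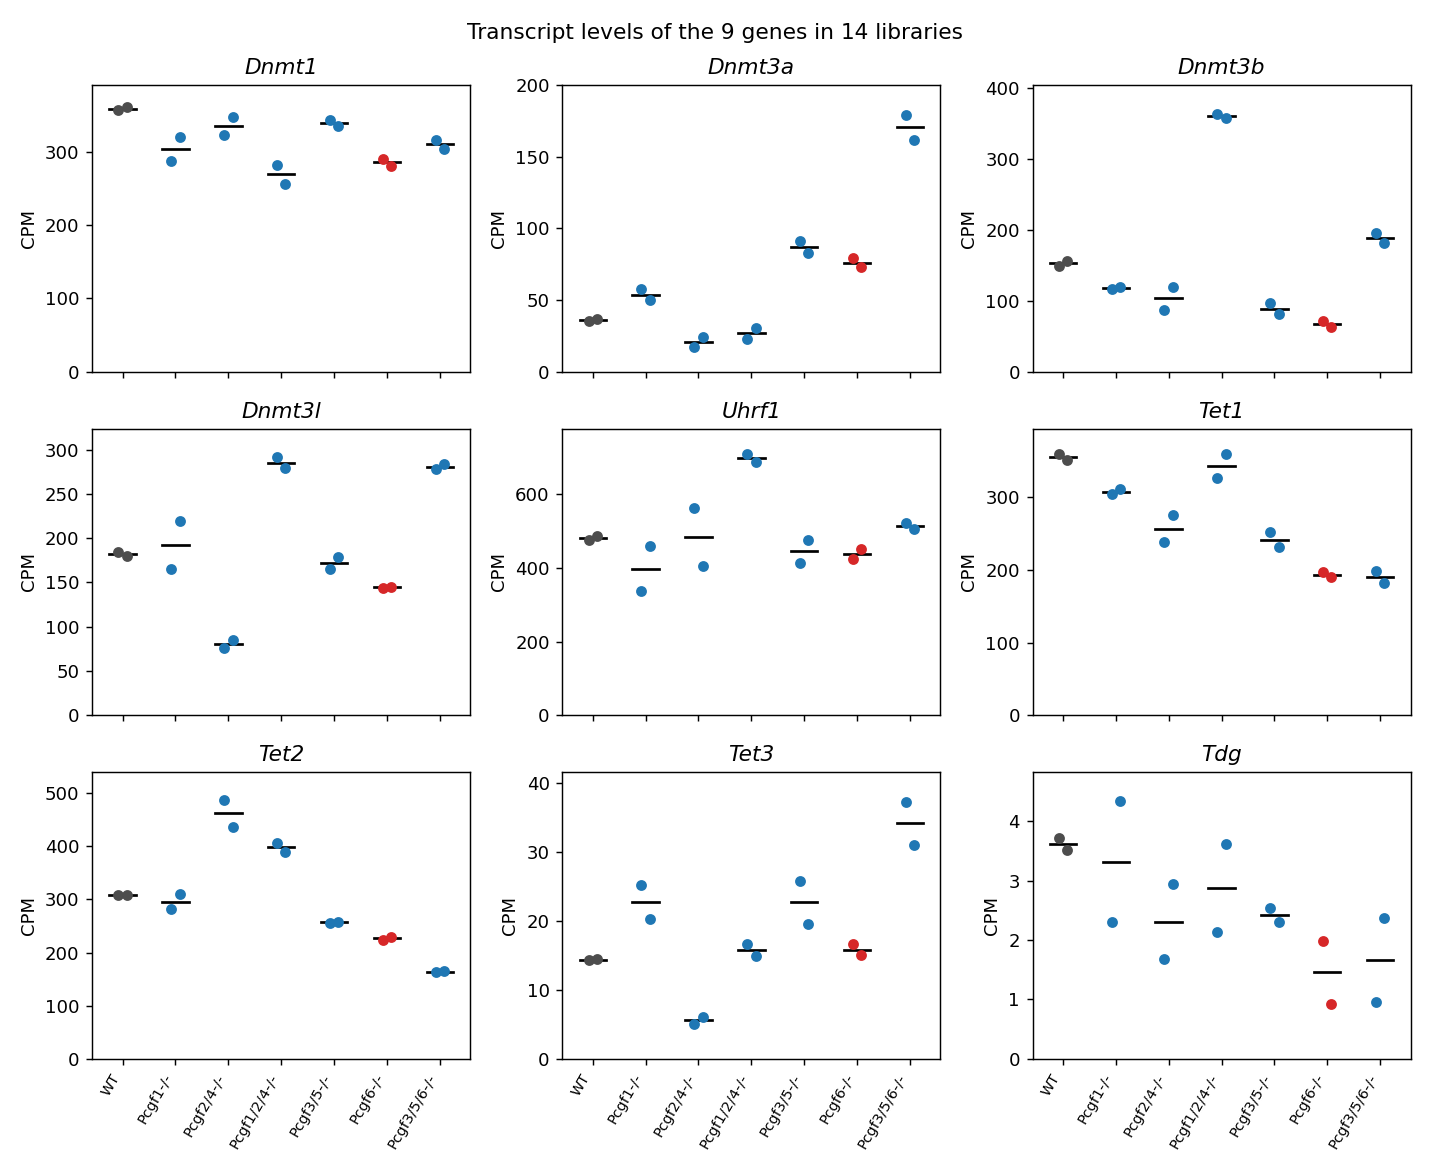
CPM (vertical axis, from 0, a separate scale for each gene) of the 9 genes in the 7 RNA-seq groups; each point is 1 library and the bar is the mean of 2. Dnmt3a is highest in the libraries labelled Pcgf3/5/6-/- (162 and 179 CPM) and Dnmt3b in Pcgf1/2/4-/- (358 and 363 CPM).

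Dnmt3a, one of the 2 catalytic de novo methyltransferases, had the highest ratio of its highest to its lowest library in the set. Its levels were 35.2 and 36.6 CPM in wild-type, 57.5 and 49.8 in Pcgf1-/-, 16.8 and 24 in Pcgf2/4-/-, 23.0 and 30.3 in Pcgf1/2/4-/-, 91.4 and 82.6 in Pcgf3/5-/-, 79.3 and 72.9 in Pcgf6-/-, and 179 and 162 in the libraries labelled Pcgf3/5/6-/-. Both libraries of Pcgf1-/-, Pcgf3/5-/-, Pcgf6-/- and Pcgf3/5/6-/- lay above both wild-type libraries, and both libraries of Pcgf2/4-/- and Pcgf1/2/4-/- lay below them. Dnmt3a rose by 1.08 on the log2 scale in Pcgf6-/- (SE 0.14, adjusted p = 1.52e-05), to 2.12-fold the wild-type level. The same measure was 1.28 in Pcgf3/5-/- (SE 0.14, adjusted p = 1.95e-05) and 2.24 in the libraries labelled Pcgf3/5/6-/- (SE 0.14, adjusted p = 2.01e-08), or 4.74-fold. The last level also lay above each line that lacks part of those genes, by 0.97 against Pcgf3/5-/- (adjusted p = 2.82e-05) and by 1.16 against Pcgf6-/- (adjusted p = 1.15e-05). The interaction, the departure from the sum of both increases on the log2 scale, was -0.12 and missed the threshold (SE 0.19, adjusted p = 0.668).

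In Pcgf2/4-/- Dnmt3a fell by 0.74 on the log2 scale (SE 0.16, adjusted p = 0.00455), and in Pcgf1-/- it rose by 0.59 (SE 0.14, adjusted p = 0.00524). Its log2 difference in Pcgf1/2/4-/- was -0.42 and missed the threshold (adjusted p = 0.0746). Each call was recomputed in 11 alternative settings: other scalings, filters, tools and designs, and each library left out in turn. The call in Pcgf1-/- ended in 2 of 11 (adjusted p up to 0.074), without Pcgf1-/- replicate 1 and without wild-type replicate 1. The call in Pcgf2/4-/- ended in 1 of 11 (up to 0.0873), with those 2 groups fitted alone. From highest to lowest, the order was Pcgf3/5/6-/-, Pcgf3/5-/-, Pcgf6-/-, Pcgf1-/-, wild-type, Pcgf1/2/4-/- and Pcgf2/4-/-. The difference between Pcgf3/5-/- and Pcgf6-/- missed the threshold (adjusted p = 0.247), though their libraries did not overlap. Neighbours among the 3 lowest groups missed it too.

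Dnmt3a lies at chr12:3806007-3914443 on the plus strand (NCBIM37, the mm9 assembly) and has annotated starts at both its 5′ end and inside the gene. In wild-type it carried H3K4me3 peaks near both, with summits at 3806260 and 3808208 by the first starts and 3891412 and 3892311 by the internal ones. Its strongest USF1 peak in wild-type (USF1 is a basic helix-loop-helix factor that binds E-boxes) had its summit at 3891589, 139 bases before the start of transcript Dnmt3a-005, with the authors' fold enrichment of 14.5. The middle of that peak, chr12:3891489-3891688 on the plus strand, lies in an intron of the longer transcripts and is shown because it holds the E-box CACGTG, printed in capitals.
Dnmt3a USF1 peak: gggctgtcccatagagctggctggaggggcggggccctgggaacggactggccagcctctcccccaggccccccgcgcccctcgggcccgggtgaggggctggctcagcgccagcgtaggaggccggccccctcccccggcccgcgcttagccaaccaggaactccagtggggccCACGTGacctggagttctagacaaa

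Dnmt3b, the other catalytic de novo enzyme, moved the opposite way in Pcgf6-/-. Its levels were 149 and 156 CPM in wild-type, 116 and 120 in Pcgf1-/-, 87.1 and 120 in Pcgf2/4-/-, 363 and 358 in Pcgf1/2/4-/-, 96.8 and 80.7 in Pcgf3/5-/-, 72.0 and 63.0 in Pcgf6-/-, and 196 and 182 in the libraries labelled Pcgf3/5/6-/-. Every library of the single and double knockouts lay below both wild-type libraries, and every library of the 2 triple knockouts lay above them. Dnmt3b fell by 1.18 on the log2 scale in Pcgf6-/- (SE 0.15, adjusted p = 2.28e-05), to 44.3% of the wild-type level. It fell by 0.78 in Pcgf3/5-/- (SE 0.15, adjusted p = 0.00254) and by 0.54 in Pcgf2/4-/- (SE 0.15, adjusted p = 0.0219). In Pcgf1/2/4-/- it rose by 1.24 (SE 0.15, adjusted p = 4.51e-05), to 2.36-fold the wild-type level.

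The remaining Dnmt3b differences, -0.37 in Pcgf1-/- (adjusted p = 0.0767) and 0.31 in the libraries labelled Pcgf3/5/6-/- (adjusted p = 0.0968), missed the threshold. The call in Pcgf2/4-/- ended in 5 of 11 alternative settings (adjusted p up to 0.164). They were the 2 groups fitted alone, the wild-type libraries summed to 1, either wild-type library left out, and Pcgf2/4-/- replicate 1 left out, where the difference was -0.32. The triple knockouts departed from the sum of their parts. Dnmt3b in Pcgf1/2/4-/- was above Pcgf1-/- by 1.61 and above Pcgf2/4-/- by 1.78 on the log2 scale (adjusted p = 4.16e-06 and 3.29e-06). The interaction of Pcgf1 loss with Pcgf2/4 loss was 2.15 (SE 0.22, adjusted p = 1.13e-05), and that of the Pcgf6 and Pcgf3/5 genotypes was 2.27 (SE 0.22, adjusted p = 4.97e-06). In the libraries labelled Pcgf3/5/6-/- it was above Pcgf3/5-/- by 1.09 and above Pcgf6-/- by 1.49 (adjusted p = 4.38e-05 and 7.08e-06).

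**Figure D2:**
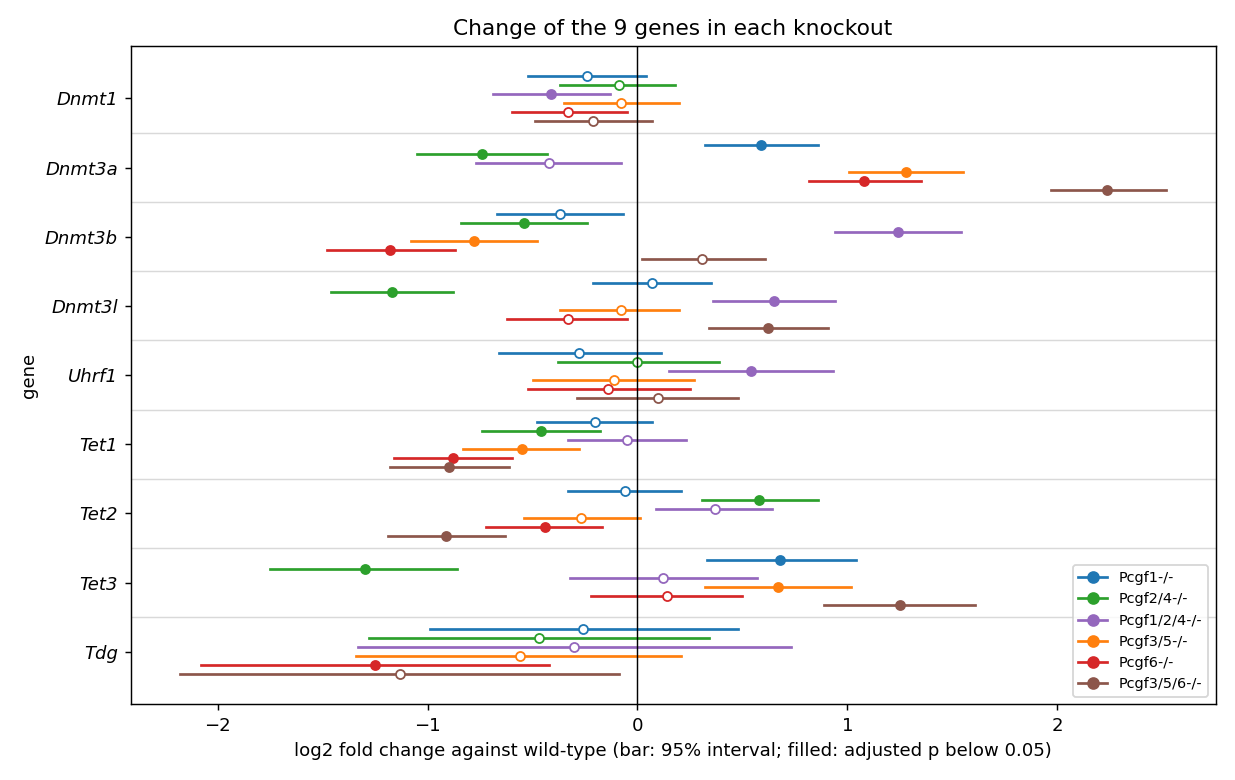
Log2 fold change against wild-type (horizontal axis) of the 9 genes in each knockout. Points are estimates from edgeR, and filled points have an adjusted p below 0.05. Bars are approximate 95% intervals from the SE and a normal curve, narrower than intervals from the test itself would be. Dnmt3a lies at 1.08, 1.28 and 2.24 in Pcgf6-/-, Pcgf3/5-/- and the libraries labelled Pcgf3/5/6-/-, and Dnmt3b at -1.18, -0.78 and 0.31 in the same groups.

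At the Dnmt3b start, 5 kinds of Polycomb peak were in the Pcgf6-/- lists and not in the wild-type lists. Those lists were of like length for RING1B (5563 peaks in Pcgf6-/- and 5454 in wild-type) and SUZ12 (6704 and 6473), and longer in Pcgf6-/- for PCGF2 (7739 and 4472), H3K27me3 (13041 and 8063) and H2AK119ub1 (5287 and 1741). Dnmt3a, whose RNA rose in Pcgf6-/-, gained PCGF1, PCGF2, SUZ12 and H2AK119ub1 promoter peaks there. It gained no RING1B peak, and its H3K27me3 promoter peak was in both lists. Whether such gains bear on the RNA was not tested. Dnmt3b lies at chr2:153475186-153513466 on the plus strand. In wild-type the PCGF1 list held a peak in its first intron at chr2:153475422-153475849 (summit 153475523, authors' fold 6.99), and the RING1B, PCGF2, SUZ12, H3K27me3 and H2AK119ub1 lists held none within 2.5 kb of its starts. In Pcgf6-/- each of these 5 lists held one there, and the PCGF1 list still did (9.8% of all genes, against 2.46% in wild-type). The RING1B peak spanned chr2:153475364-153476514 (fold 9.67), the main PCGF2 peak 153475197-153476604 (fold 15.3) and the SUZ12 peak 153475352-153476518 (fold 10.8). An H3K27me3 peak had its summit 482 bases upstream (fold 8.29) and an H2AK119ub1 peak had its summit 1039 bases downstream of the nearest start (fold 4.89). The main H3K4me3 peak at the start was 3463 bp wide in wild-type and 1554 bp in Pcgf6-/-. A smaller H3K4me3 extent was not particular to Dnmt3b. These peaks covered less of the span in Pcgf6-/- than in wild-type at most of the 9 genes. Among them were Dnmt3l (16.4% against 32.2%) and Uhrf1 (17.3% against 23.3%), while only Dnmt3a and Tdg went slightly the other way. The change in H3K4me3 coverage over all genes was not computed. A difference between the whole lists therefore cannot be told apart from these values. The part of the wild-type PCGF1 peak that lies in the intron near its summit, chr2:153475477-153475672 on the plus strand, is shown for its CpG dinucleotides, in capitals. It has 19 in 196 bases, an observed over expected ratio of 0.802.
Dnmt3b PCGF1 peak: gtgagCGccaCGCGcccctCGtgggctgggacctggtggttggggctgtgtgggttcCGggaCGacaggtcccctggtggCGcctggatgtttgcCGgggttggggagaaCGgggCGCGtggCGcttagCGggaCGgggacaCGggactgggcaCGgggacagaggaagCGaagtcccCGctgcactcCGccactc

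Gene-body H3K36me3 at Dnmt3b was smaller in the same genotype. Peaks covered 50.3% of the Dnmt3b span in wild-type, 73.9% in Pcgf1-/-, 68.4% in Pcgf2/4-/-, 62.8% in Pcgf3/5-/- and 19.3% in Pcgf6-/-. Thus Dnmt3b kept 38.4% of its wild-type coverage in Pcgf6-/-, and 1.49% of the 6256 genes covered over at least 10% of their span in wild-type kept that little or less. Over those genes the median change was a gain of 9.19 percentage points, and the lists were of like length (60309 peaks in wild-type and 59343 in Pcgf6-/-). In the libraries labelled Pcgf3/5/6-/-, where Dnmt3b RNA was near or above the wild-type level, its start had no RING1B or SUZ12 peak (7.88% and 13% of genes) but did have an H2AK119ub1 peak (fold 15.8, 31.2% of genes). In Pcgf1/2/4-/- neither RING1B list, nor the SUZ12, H3K27me3 or either H2AK119ub1 list, had a peak there, and the wild-type lists had none either. These lists reached few genes: RING1B 6.84% and 6.15% (15.1% in wild-type), SUZ12 13.2%, H3K27me3 5.49% and H2AK119ub1 1.64% and 0.827%. Absence at 1 gene therefore says little. In Pcgf2/4-/- the start had SUZ12 and PCGF1 peaks (folds 7.14 and 6.46), and H2AK119ub1 peaks from a list of 121944. All folds are the authors' values for a peak against its own control, and folds or coverage were not compared by a test.

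**Figure D3:**
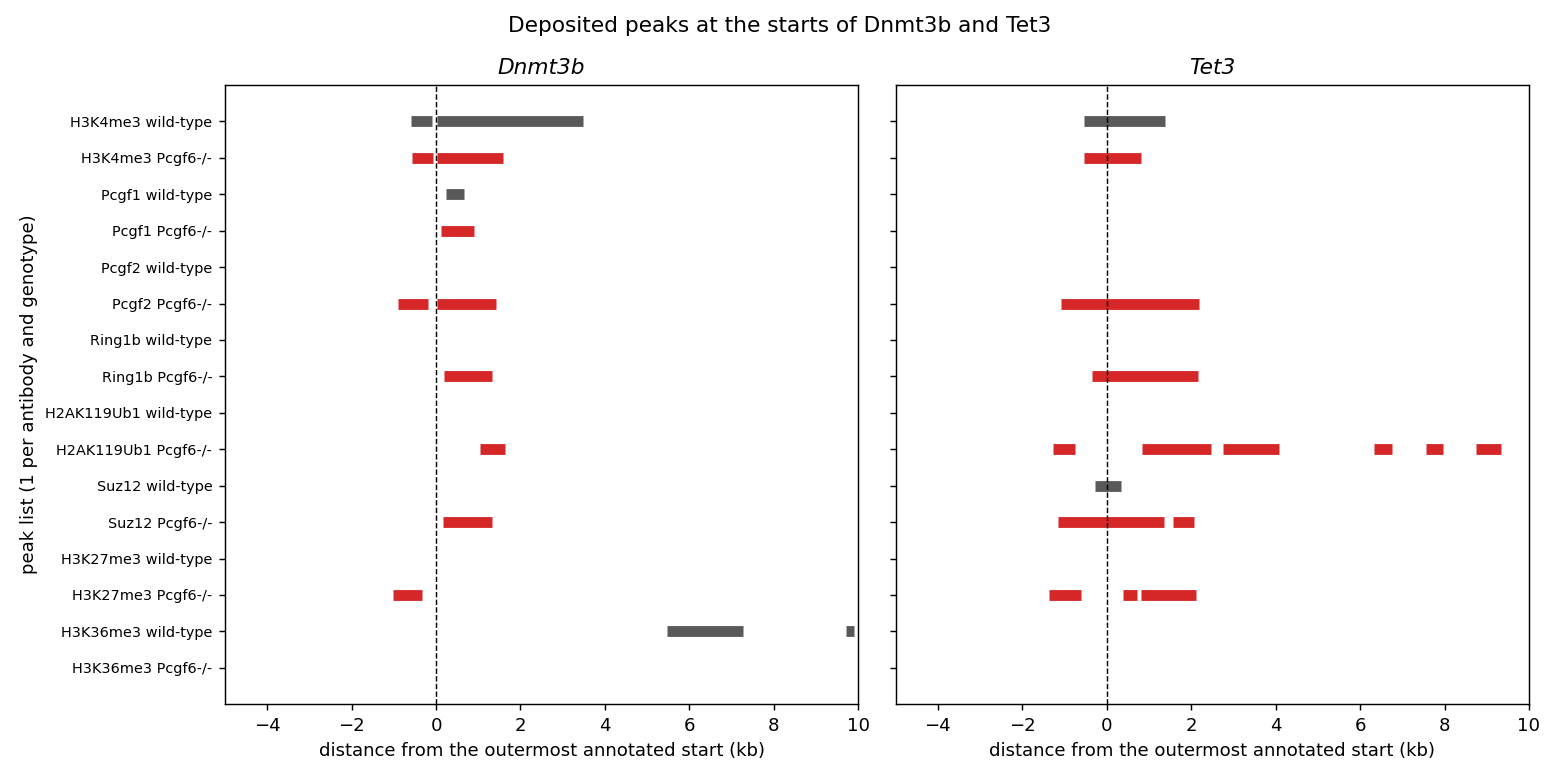
Peaks of 8 antibodies in wild-type (grey) and Pcgf6-/- (red) around the outermost annotated starts of Dnmt3b and Tet3; the horizontal axis is the distance from that start in kb along the direction of transcription, and each row is 1 peak list. RING1B and PCGF2 peaks at both starts are present in the Pcgf6-/- lists and not in the wild-type lists.

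Dnmt3l, the cofactor of the de novo enzymes, was lowest in Pcgf2/4-/-. Its levels were 184 and 180 CPM in wild-type, 165 and 219 in Pcgf1-/-, 76.2 and 84.8 in Pcgf2/4-/-, 292 and 279 in Pcgf1/2/4-/-, 165 and 179 in Pcgf3/5-/-, 144 and 145 in Pcgf6-/-, and 278 and 284 in the libraries labelled Pcgf3/5/6-/-. The Pcgf2/4-/- libraries lay below every other library and the triple-knockout libraries above every other. Dnmt3l fell by 1.17 on the log2 scale in Pcgf2/4-/- (SE 0.15, adjusted p = 0.000135), to 44.4% of wild-type. It rose by 0.65 in Pcgf1/2/4-/- (SE 0.15, adjusted p = 0.00395) and by 0.62 in the libraries labelled Pcgf3/5/6-/- (SE 0.15, adjusted p = 0.00233). Its difference was 0.07 in Pcgf1-/- (95% interval -0.21 to 0.35) and -0.08 in Pcgf3/5-/- (-0.37 to 0.20). In Pcgf6-/- it was -0.33 (-0.62 to -0.05), which missed the threshold (adjusted p = 0.0745). Like Dnmt3b, Dnmt3l had an interaction in both families, 1.75 for Pcgf1 with Pcgf2/4 (SE 0.21, adjusted p = 4.38e-05) and 1.04 for Pcgf6 with Pcgf3/5 (SE 0.21, adjusted p = 0.00146). The 3 calls against wild-type held in all 11 alternative settings.

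Over all 9 genes, each triple knockout differed from its parts as follows. In Pcgf1/2/4-/- against Pcgf1-/- 5 were called (Dnmt3b, Dnmt3l, Uhrf1 and Tet2 higher, Dnmt3a lower), beside 41.6% of all genes, 3 of them without Pcgf1-/- replicate 1. Against Pcgf2/4-/- 4 were called (Dnmt3b, Dnmt3l, Tet1 and Tet3, all higher), beside 30% of all genes. In the libraries labelled Pcgf3/5/6-/- 5 were called against Pcgf3/5-/- (51.8% of all genes, 27.1% higher) and 5 against Pcgf6-/- (46% of all genes, 27% lower), and both times these were Dnmt3a, Dnmt3b, Dnmt3l and Tet3 higher and Tet2 lower. The 2 comparisons share the libraries of the triple knockout. An interaction passed the threshold for 4 genes in the Pcgf1 and Pcgf2/4 family (30.9% of all genes) and for 2 in the Pcgf6 and Pcgf3/5 family (34.9%). The first count was 2 without either wild-type library or without Pcgf1/2/4-/- replicate 2, with the calls of Uhrf1 and Tet1 lost.

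Dnmt1 and Uhrf1, the maintenance pair, were each called in 1 knockout. Dnmt1 ran from 257 to 361 CPM over the 14 libraries and Uhrf1 from 336 to 709. Uhrf1 was at 475 and 487 CPM in wild-type and at 709 and 689 in Pcgf1/2/4-/-, where it rose by 0.54 on the log2 scale (SE 0.20, adjusted p = 0.0465). This call was lost or turned in 7 of 11 alternative settings (adjusted p up to 0.29), among them each wild-type and each Pcgf1/2/4-/- library left out, and with intensity-dependent (loess) offsets the difference was -0.16. Dnmt1 was at 357 and 361 CPM in wild-type and 282 and 257 in Pcgf1/2/4-/- (log2 fold change -0.41, SE 0.14, adjusted p = 0.0367), a call that ended in 7 of 11 settings (adjusted p up to 0.152), the same 4 libraries left out among them. In Pcgf6-/- the differences were -0.33 for Dnmt1 (95% interval -0.60 to -0.05, adjusted p = 0.0744) and -0.14 for Uhrf1 (-0.52 to 0.25). No pair of neighbouring levels differed for either gene. Uhrf1 had an interaction of Pcgf1 with Pcgf2/4 loss of 0.81 (SE 0.28, adjusted p = 0.0403), which missed the threshold with loess offsets, with the replicate block, with the wild-type libraries summed to 1 and with any of 6 libraries left out (adjusted p up to 0.113).

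Tet1, which carries a CXXC domain that binds CpG-rich DNA, fell in 4 of the 6 knockouts. Its levels were 359 and 351 CPM in wild-type, 305 and 311 in Pcgf1-/-, 239 and 275 in Pcgf2/4-/-, 326 and 360 in Pcgf1/2/4-/-, 252 and 231 in Pcgf3/5-/-, 197 and 190 in Pcgf6-/-, and 199 and 182 in the libraries labelled Pcgf3/5/6-/-. Only Pcgf1/2/4-/- overlapped the wild-type range. Tet1 fell by 0.88 on the log2 scale in Pcgf6-/- (SE 0.14, adjusted p = 0.000157), to 54.5% of wild-type, and by 0.90 in the libraries labelled Pcgf3/5/6-/- (SE 0.14, adjusted p = 0.000128). Between those 2 groups the log2 difference was -0.02 (95% interval -0.30 to 0.26). The decreases of 0.46 in Pcgf2/4-/- and 0.55 in Pcgf3/5-/- (adjusted p = 0.0324 and 0.0129) ended as calls in 6 and 5 of 11 alternative settings (adjusted p up to 0.348 and 0.115). For both these included each wild-type library left out, and beside them Pcgf2/4-/- replicate 1 for the former and each Pcgf3/5-/- library for the latter. Tet1 had an interaction of Pcgf1 with Pcgf2/4 loss of 0.62 (SE 0.20, adjusted p = 0.0319), which missed the threshold without a filter, with loess offsets, with the replicate block, with the wild-type libraries summed to 1 and with any of 4 libraries left out (adjusted p up to 0.545).

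Tet2, a TET enzyme without the CXXC domain of Tet1 and Tet3, ran opposite to Dnmt3a. Its levels were 308 and 309 CPM in wild-type, 282 and 310 in Pcgf1-/-, 488 and 436 in Pcgf2/4-/-, 406 and 390 in Pcgf1/2/4-/-, 255 and 258 in Pcgf3/5-/-, 224 and 229 in Pcgf6-/-, and 163 and 165 in the libraries labelled Pcgf3/5/6-/-. Tet2 was highest in the groups where Dnmt3a was lowest and lowest in the group where Dnmt3a was highest. Across the 14 libraries Pearson's r between their log2 CPM was -0.98. This is a description only: the libraries come from 7 groups that share normalization, and 2 libraries of a group are not independent points of the relation. Tet2 fell by 0.91 on the log2 scale in the libraries labelled Pcgf3/5/6-/- (SE 0.14, adjusted p = 0.000101). It rose by 0.58 in Pcgf2/4-/- (SE 0.14, adjusted p = 0.00869) and fell by 0.44 in Pcgf6-/- (SE 0.14, adjusted p = 0.0171). The calls in Pcgf2/4-/- and Pcgf6-/- ended in 4 and 6 of 11 alternative settings (adjusted p up to 0.206 and 0.112), in both with either wild-type library left out, and in Pcgf6-/- also with either of its own left out.

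Tet3, the TET enzyme best known from the zygote, was low throughout. Its levels were 14.3 and 14.5 CPM in wild-type, 25.3 and 20.3 in Pcgf1-/-, 5.03 and 6.13 in Pcgf2/4-/-, 16.6 and 14.9 in Pcgf1/2/4-/-, 25.8 and 19.6 in Pcgf3/5-/-, 16.6 and 15.0 in Pcgf6-/-, and 37.3 and 31.1 in the libraries labelled Pcgf3/5/6-/-. The Pcgf2/4-/- libraries were the lowest and those labelled Pcgf3/5/6-/- the highest. Tet3 fell by 1.30 on the log2 scale in Pcgf2/4-/- (SE 0.23, adjusted p = 0.00122), where it had 12 and 48 counts, and rose by 1.25 in the libraries labelled Pcgf3/5/6-/- (SE 0.19, adjusted p = 6.53e-05). The increases of 0.68 in Pcgf1-/- and 0.67 in Pcgf3/5-/- (adjusted p = 0.00955 and 0.0163) ended as calls in 3 and 4 of 11 settings (adjusted p up to 0.14 and 0.212). In both these included each wild-type library and replicate 1 of the knockout left out, and without Pcgf3/5-/- replicate 1 the increase there was 0.44. In Pcgf6-/- the difference was 0.14 (SE 0.18, 95% interval -0.22 to 0.50).

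The Tet3 start, at chr6:83391672 on the minus strand, also differed in Polycomb peaks between wild-type and Pcgf6-/-, without a called difference in its RNA. In wild-type it had a SUZ12 peak at chr6:83391344-83391953 (authors' fold 6.17), while 5 H2AK119ub1 peaks lay inside the gene, with none within 2.5 kb of a start. In Pcgf6-/- RING1B had 8 peaks in the gene, the strongest over the Tet3 start at chr6:83389522-83392032 (fold 9.83), and PCGF2 (fold 14.1), SUZ12 (fold 13.6), H3K27me3 and H2AK119ub1 peaks lay there too. The Tet3 H3K4me3 peak was 1936 bp wide in wild-type (fold 49.8) and 1359 bp in Pcgf6-/- (fold 23.3). H3K4me3 coverage was lower in Pcgf6-/- at most of the other enzymes too, and its change over all genes was not computed. The stretch just upstream of the start within the wild-type SUZ12 peak, chr6:83391673-83391748, printed along the minus strand, is shown with its 9 CpG dinucleotides in capitals.
Tet3 SUZ12 peak: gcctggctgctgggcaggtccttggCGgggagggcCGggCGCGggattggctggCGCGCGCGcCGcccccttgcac

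Tdg, the glycosylase, had too few counts for firm statements. It had 26 and 25 counts in wild-type (3.71 and 3.52 CPM), 16 and 6 in Pcgf6-/- (1.99 and 0.919 CPM) and 3 to 23 in the other groups. The decrease of 1.25 on the log2 scale in Pcgf6-/- (SE 0.42, adjusted p = 0.0251) ended as a call in 4 of 11 alternative settings (adjusted p up to 0.197), which were DESeq2, each wild-type library left out, and Pcgf6-/- replicate 2 left out, where it was -0.85. No other group was called. Reads from its near-identical copies may be lost from or added to these counts. Tdg carried the strongest USF1 peak of the set in wild-type (authors' fold 36.4, summit chr10:82092551), 22 bases before its start. The intergenic side of that peak, chr10:82092451-82092572 on the plus strand, is shown because it holds 1 E-box, in capitals.
Tdg USF1 peak: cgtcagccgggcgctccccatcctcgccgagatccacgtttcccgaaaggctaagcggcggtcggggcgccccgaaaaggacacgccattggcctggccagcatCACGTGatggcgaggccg

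All 9 had an H3K4me3 peak within 2.5 kb of an annotated start in wild-type, where 66.2% of 22367 protein-coding genes did, and all 9 kept one in Pcgf1-/-, Pcgf2/4-/-, Pcgf3/5-/- and Pcgf6-/- (64.9% to 67.9% of genes). None of the 9 had a PCGF6 peak in wild-type, against 5.74% of genes, and none had a RING1B peak, against 15.1%. PCGF3 peaks in wild-type were at none of the 9 and at 0.854% of genes. None of the 9 had a RING1B peak in Pcgf1-/-, Pcgf2/4-/- or Pcgf3/5-/- either (15.2%, 17% and 15.4% of genes). H3K36me3 covered at least 10% of 7 of the 9 spans in wild-type (28% of genes). The exceptions were Dnmt3a, at 0%, and Tet3, at 1.29%. The other 6 besides Dnmt3b kept 40.3% to 88.7% of their span covered in Pcgf6-/-, against 34.3% to 82.4% in wild-type.

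In Pcgf6-/- 2 of the 9, Dnmt3b and Tet3, had a RING1B peak at a start (12.6% of genes). Between the wild-type and Pcgf6-/- lists, 1.44% of genes gained a RING1B promoter peak and 3.9% lost one. For SUZ12, Dnmt3a and Dnmt3b gained a peak (1.34% of genes gained one), and for H2AK119ub1 Dnmt3a, Dnmt3b and Tet3 did (3.94%). For PCGF2 the same 3 genes did (7.29%), and for PCGF1 Dnmt3a did (7.52%). H3K27me3 peaks were gained at Dnmt3b and Tet3 (3.64%). Dnmt3a had an H3K27me3 promoter peak in both lists (12.8% of genes in wild-type and 13.6% in Pcgf6-/-). Its RNA rose in Pcgf6-/-, while that of Dnmt3b fell. At the threshold of −log10 q of 20 both RING1B peaks remained.

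SUZ12 peaks in Pcgf2/4-/- lay at Dnmt3a, Dnmt3b and Tet3 (21% of genes), and in wild-type at Tet3 (16.5%). PCGF6 peaks were at none of the 9 in Pcgf3/5-/- (5.31% of genes). They appeared at Dnmt3a and Dnmt3l in Pcgf2/4-/-, from a list of 12842 peaks that reached 32.4% of genes, against 1868 peaks in wild-type. In Ring1a/b-/- cells PCGF6 peaks lay at Dnmt3l and Uhrf1 (4.74% of genes), and in Ring1a-/-_Ring1bfl cells at none of the 9 (6.16%). The PCGF6 list from Pcgf6-/- cells still held 1042 peaks, at 1.59% of genes and at none of the 9. Promoter H2AK119ub1 peaks were at all 9 genes in Pcgf3/5-/- but at 65% of all genes, in a list of 128786 peaks against 1741 in wild-type, so the lists differ too much in length for counts at single genes to be compared. USF1 peaks in wild-type lay at Dnmt3a, Dnmt3l, Uhrf1, Tet2 and Tdg, 5 of the 9, where 16.2% of genes had one. Genes with many annotated starts, such as Dnmt3a with 18, were searched over more sequence. The shares of all genes are not matched for this. WDR5 peaks lay at Uhrf1 and Tdg (9.12% of genes).

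**Figure D4:**
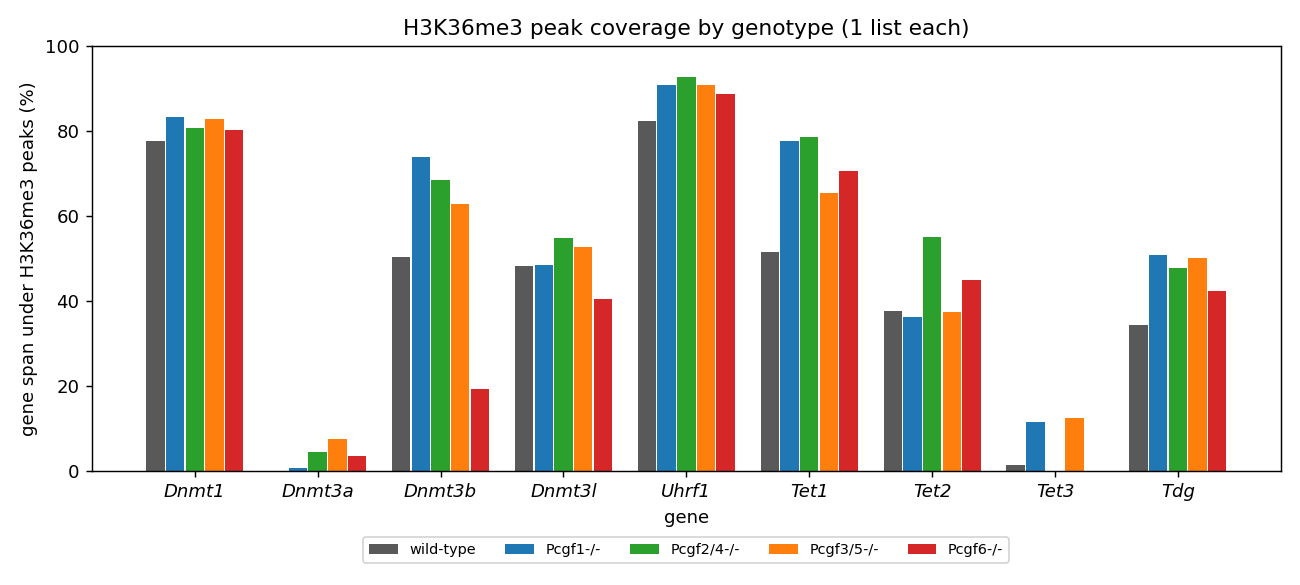
Percent of each gene's span under H3K36me3 peaks (vertical axis, from 0) in 5 genotypes, 1 peak list each, with no error bars since there is no replicate. Dnmt3b is at 50.3% in wild-type and 19.3% in Pcgf6-/-, while Dnmt3a is at most 7.41% in any genotype.

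Germline gene activation in Pcgf6-/- was described beside the enzymes with a list of 22 meiotic and germ cell genes, of which 20 were in the table and tested. Promoters of such genes, Dazl and Ddx4 among them, are known to be methylated in somatic cells. In Pcgf6-/- 19 of the 20 rose, against 27.8% of all genes raised, with a median log2 fold change of 3.44 beside 0.03 for all genes, and 1, the cohesin gene Stag3, fell (-0.45). The list was drawn up with earlier results of these data known. Its summed level was 456 and 471 CPM in wild-type and 2680 and 2890 CPM in Pcgf6-/-. Slc25a31, a germ cell ADP/ATP carrier, rose from 3.85 and 4.78 CPM in wild-type to 180 and 196 in Pcgf6-/-, by 5.44 on the log2 scale (SE 0.18, adjusted p = 1.14e-10). Sycp1, of the synaptonemal complex, went from 2.20 to 77.4 CPM (5.12, SE 0.26, adjusted p = 2.72e-09) and Tdrkh, of the piRNA pathway, from 5.18 to 142 CPM (4.77, SE 0.20, adjusted p = 4.89e-10). Stra8, the retinoic acid responsive meiotic gene, went from 5.87 to 129 CPM (4.46, SE 0.14, adjusted p = 1.01e-10). Tdrd1, a piRNA pathway tudor gene, had 3 and 4 counts in wild-type and 210 and 163 in Pcgf6-/- (adjusted p = 5.86e-09).

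The same promoters differed from those of the 9 enzymes in the peak lists. PCGF6 peaks in wild-type lay at 18 of the 20 germline promoters (5.74% of all genes) and RING1B peaks at 15 (15.1%). None of the 9 enzymes had either. The PCGF6 list from Pcgf6-/- cells, where the antibody's target transcript had 0 counts, still had peaks at 7 of these 20 promoters. That list reached 1.59% of all genes. H3K4me3 peaks were at 14 of the 20 in wild-type, close to the share of 66.2% of all genes, and at all 20 in Pcgf6-/- (67.9%). RING1B peaks were at 2 of the 20 in Pcgf6-/-, Mov10l1 and Mei1 (12.6% of all genes). So RING1B peaks went from 15 to 2 at germline promoters and from none to 2 at the enzymes between the same pair of lists. In the RefSeq promoter table (GRCm38.p6, 250 bases before to 50 after a start, both strands, a gene counted once), the E-box CACGTG was in 3 of the 9 enzymes, in 11 of the 19 germline genes that this table holds (Tex11 is not among them) and in 8.09% of 27027 genes. The E2F letters TTCCCGC were in 1 of the 9 (Uhrf1), in 6 of the 19 and in 5.29% of all, and TTCGCGC in 2 of the 9 (Dnmt1 and Uhrf1), 1 of the 19 and 1.81%. The letters CGCG, which overlap TTCGCGC, were in 8 of the 9, 15 of the 19 and 40.6%.

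Across the other genotypes the germline level is given beside the de novo enzymes. It was 2100 and 2120 CPM in the libraries labelled Pcgf3/5/6-/-, with 18 of the 20 raised (28% of all genes raised), and Dnmt3b there was at 196 and 182 CPM, not called against wild-type. In Pcgf3/5-/- the germline sum was 652 and 655 CPM, with 9 of the 20 raised (11.1% of all genes; 5 without wild-type replicate 1) and Ddx4, Mael, Zcwpw1 and Mei1 lowered, and Dnmt3b was lowered there. In Pcgf1/2/4-/-, where Dnmt3b was highest, the sum was 582 and 591 CPM, with Tex101 and Stk31 raised (14.4% of all genes) and 7 of the 20 lowered (22.6%). In Pcgf1-/-, where Dnmt3a was raised and Dnmt3b was not called, the sum was 490 and 499 CPM, with 4 of the 20 raised (13.9% of all genes) and 7 lowered (18.4%). In Pcgf2/4-/-, where Dnmt3a and Dnmt3b were both lowered, it was 500 and 524 CPM, with 4 raised (8.1% of all genes) and 5 lowered (13.5%). Dnmt3a was raised in the 3 genotypes with the highest germline sums, Pcgf6-/-, Pcgf3/5-/- and the libraries labelled Pcgf3/5/6-/-, and also in Pcgf1-/-. These comparisons share the wild-type libraries, so no correlation between them was computed.

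**Figure D5:**
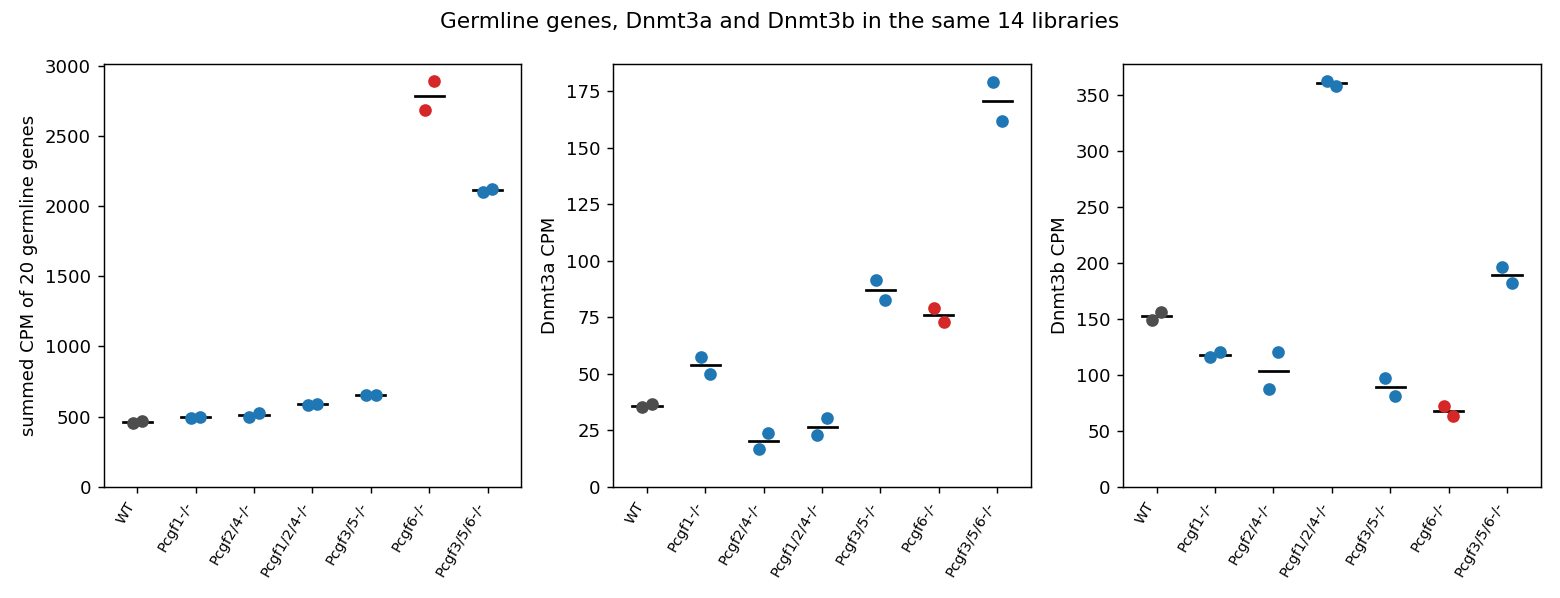
Summed CPM of the 20 germline genes (left), CPM of Dnmt3a (middle) and of Dnmt3b (right) in the 7 groups; points are single libraries, bars are means of 2, and the vertical axes start at 0. The germline sum is highest in Pcgf6-/- (2680 and 2890 CPM), where Dnmt3b is lowest (63.0 and 72.0 CPM).

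The wider pathway was read from a list of 57 genes, of which 56 were tested, in 4 classes. In Pcgf6-/- 10 rose and 14 fell, with a median of -0.20 beside 0.03 for all genes, a share called below the 46.5% of all genes. Among recruitment, chromatin and imprint cofactors, 3 of 19 rose and 2 fell. Dppa3, which protects against TET3 and limits UHRF1, went from 25.1 to 93.8 CPM (log2 fold change 1.90, SE 0.12, adjusted p = 1.59e-08). Among the readers of methylated or unmethylated CpG, 2 of 11 tested rose and 4 fell, with Zbtb38, a methyl-CpG binding zinc finger, going from 40.3 to 8.95 CPM (-2.15, adjusted p = 3.46e-07). Cxxc5, a CXXC zinc finger protein, went from 75.2 to 35.1 CPM (-1.09, adjusted p = 1.77e-06).

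Among base excision and deamination genes in Pcgf6-/-, 5 of 16 rose and 6 fell. Gadd45g, a stress-response gene linked to active demethylation, went from 2.05 to 25.8 CPM (log2 fold change 3.64, SE 0.23, adjusted p = 1.99e-08). The glycosylase gene Neil1 went from 31.4 to 9.36 CPM (-1.74, SE 0.25, adjusted p = 5.12e-05). Of the 10 genes for methyl donor and TET cofactor supply, Mtr and Tyms fell and none rose.

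In the other knockouts the counts of the 56 genes are set beside the share of all genes called. In the libraries labelled Pcgf3/5/6-/- 11 rose and 19 fell (53.3% of all genes called), in Pcgf1/2/4-/- 13 and 15 (37%), and in Pcgf1-/- 9 and 14 (32.3%). In Pcgf3/5-/- 3 rose and 8 fell (21.6%), and in Pcgf2/4-/- 2 and 5 (21.6%; 22 genes in all without Pcgf2/4-/- replicate 2). Dppa3 was also raised in Pcgf1-/- (0.52), Pcgf2/4-/- (1.08), Pcgf1/2/4-/- (1.15) and the libraries labelled Pcgf3/5/6-/- (2.57) and lowered in Pcgf3/5-/- (-0.74). The deaminase family genes Apobec1 and Apobec2 fell by 1.89 and 2.31 in Pcgf1/2/4-/- (adjusted p = 3.34e-05 and 1.06e-05). Cdca7l, a homologue of the HELLS partner gene Cdca7, fell by 1.16 in Pcgf1-/-, 0.98 in Pcgf2/4-/- and 1.23 in Pcgf1/2/4-/- (adjusted p = 4.35e-05, 0.000427 and 0.000151). It rose by 0.78 in Pcgf6-/- and by 0.44 in the libraries labelled Pcgf3/5/6-/- (adjusted p = 0.000161 and 0.014).

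Markers of other cell states moved beside these results, and their part in the results was not tested. Over all genes, 27.8% were raised and 18.6% lowered in Pcgf6-/-, 28% and 25.3% in the libraries labelled Pcgf3/5/6-/-, and 14.4% and 22.6% in Pcgf1/2/4-/-. In bulk RNA a change in the share of cells of a type and a change in RNA per cell cannot be told apart. The formative and primed epiblast list, of a state in which Dnmt3a and Dnmt3b are known to be high, had 0 of 9 tested genes raised and 5 lowered in Pcgf6-/- (summed 440 to 442 CPM against 683 to 698 in wild-type, median -1.05). It had 5 raised and 1 lowered in Pcgf1/2/4-/- (996 CPM in both libraries), where Dnmt3b and Dnmt3l were raised and Dnmt3a was not (-0.42). In the same group 4 of 8 trophoblast markers rose and 1 fell, 3 of 6 primitive endoderm markers rose and 1 fell, and all 5 of the 2-cell-like markers fell. Of the 9 formative and primed epiblast markers tested, 4 rose and 4 fell in the libraries labelled Pcgf3/5/6-/- (570 to 620 CPM). The defining gene Fgf5 was at 0.143 CPM or below in wild-type, at 0.373 and 0.613 in Pcgf6-/- and at 3.48 and 2.70 in the libraries labelled Pcgf3/5/6-/-.

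All 5 of the 2-cell-like markers tested rose in Pcgf6-/- (492 to 544 CPM against 104 to 107 in wild-type) and in the libraries labelled Pcgf3/5/6-/- (279 to 280 CPM). Trophoblast markers had 6 of 8 raised and 2 lowered in those labelled libraries (687 to 688 CPM against 117 to 123), and 5 raised and 2 lowered in Pcgf6-/- (117 to 131 CPM), with Cdx2 and Eomes among the lowered in both. Primitive endoderm markers had 4 of 6 tested raised, Gata4 among them, and Lama1 lowered in the libraries labelled Pcgf3/5/6-/- (208 to 215 CPM against 76.9 to 84.5), and 3 raised in Pcgf6-/- (168 to 177 CPM). The defining genes Gata4, Gata6 and Sox17 were at 0 in wild-type, at or below 2.12 CPM in Pcgf6-/- and at or below 2.03 CPM in the libraries labelled Pcgf3/5/6-/-. Fibroblast markers had 3 of 5 tested raised in both (Col1a1, Col1a2 and Thy1), with Pdgfrb lowered in Pcgf6-/- and Lum lowered in the libraries labelled Pcgf3/5/6-/-. Their sum was 42.9 to 45.6 CPM in Pcgf6-/-, 73.7 to 76.5 in the libraries labelled Pcgf3/5/6-/- and 43.6 to 47.5 in wild-type, where Col3a1 was at 0.

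The genes whose log2 CPM over the 14 libraries was most like that of each enzyme, among 11615 or 11616 compared, are given as a description, since libraries of a group share their genotype. For Dnmt3a they were Smyd1 (r = 0.978) and Tnfrsf1a (0.966), for Dnmt3b Mpzl1 (0.974) and Kat2a (0.973), and for Dnmt3l Crip2 (0.979) and Kctd15 (0.925). For Tet1 they were Zscan10 (0.946) and Zbtb25 (0.931), for Tet2 Pdp2 (0.972) and Slc50a1 (0.969), and for Tet3 Cd82 (0.965) and Cyp11a1 (0.942). For Dnmt1 they were Cic (0.91) and Npat (0.898), for Uhrf1 Psmc1 (0.978) and Aaas (0.977), and for Tdg Pacrgl (0.869) and Zbtb25 (0.84).

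The authors' deposited table of comparisons gave 1 of the 54 values of these genes a call, Dnmt3a in the libraries labelled Pcgf3/5/6-/- (log2 fold change 2.32). The other 53 were marked as not differentially expressed, including Dnmt3b in Pcgf6-/- (-1.14) and Dnmt3a in Pcgf6-/- (1.12) in the authors' deposited table. The authors' adjusted p was 3.78e-14 for Dnmt3b and 5.2e-13 for Dnmt3a in Pcgf6-/-. Others of the 53 had an adjusted p above 0.05, such as Uhrf1 in Pcgf6-/- (0.796). The authors' label therefore did not follow an adjusted p threshold of 0.05 alone. It does not mean that their test found no difference. The clone of Pcgf6-/- carries another number in that table than in the count table, so whether both describe the same libraries was not established.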

How the data were processed

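The members and lists were chosen with earlier results of these data known. Counts per gene were deposited by the authors; per the submitters' processing notes the tools were bcl2fastq 2, TopHat2 2.1.1, Bowtie 1.2.2, Picard 1.62, HTSeq 0.7.2, DESeq2 3.7 and MACS2 2.1.1, with build mm9. Which tool made which file is not stated. The authors' deposited comparison tables hold log2 fold changes, p-values and mean levels (signal, per the file headers). The 80 deposited peak lists hold the authors' fold enrichment (a ratio) and −log10 p and q, with the lowest −log10 q at 3.49. The 14 count columns were fitted in 1 model with edgeR 4.0.16 (TMM, filterByExpr, glmQLFTest, with R 4.3.3). All 95% intervals use the SE and a normal curve, so they are narrower than intervals from that test would be. DESeq2 1.42.0 and limma 3.58.1 served alternatives. A gene had a promoter peak when one lay within 2.5 kb of an annotated start (GENCODE M1), and an H3K36me3 body when peaks covered at least 10% of its span. All annotated starts of a gene were searched, so promoter counts and shares are not matched for the number of starts. The annotation's genome fits the lists: chromosome 1 ends at 197195432 and the farthest peak at 197168327. Sequences were read from it with samtools 1.23.1, copies were found with minimap2 2.31, and promoter motifs come from the RefSeq table. Named genes are the 9 members, the targeted genes, and the called genes with the largest changes, 3 raised and 3 lowered of the pathway list per comparison and 5 raised germline genes in Pcgf6-/-, at a mean of at least 1 CPM and with libraries that do not overlap; part of them is printed, and 1 is not reported here. Other list genes were chosen after their values were seen. The fit was tested on simulated data. Sequencing reads carry no molecular identifiers, so counting floors (3 counts) cover counting error only.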

Additional observations from a re-analysis of the deposited data

Results flagged for a closer look

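Interaction terms, which measure how far a triple knockout departs from the sum of its 2 parts on the log2 scale, passed the threshold for 6 results. For Pcgf1 loss with Pcgf2/4 loss they were 2.15 for Dnmt3b, 1.75 for Dnmt3l, 0.81 for Uhrf1 and 0.62 for Tet1. Those of Uhrf1 and Tet1 missed the threshold without either wild-type library, without Pcgf1/2/4-/- replicate 2, with the replicate block, with the wild-type libraries summed to 1 and with loess offsets. For Pcgf6 with Pcgf3/5 they were 2.27 for Dnmt3b and 1.04 for Dnmt3l. In all 15464 genes tested, 30.9% and 34.9% had such a term. Each genotype is 1 clone, so clone and genotype cannot be told apart.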

How the results depend on the processing

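Of the 26 calls of the 9 genes against wild-type, 14 held in all 11 alternative settings tried for each (other scaling, no filter, DESeq2, loess offsets, the 2 groups alone, the replicate block, each library left out, and the wild-type pair summed to 1, the last added after seeing the data). They are Dnmt3a in Pcgf3/5-/-, Pcgf6-/- and the libraries labelled Pcgf3/5/6-/-, Dnmt3b in Pcgf3/5-/-, Pcgf6-/- and Pcgf1/2/4-/-, all 3 of Dnmt3l, Tet1 in Pcgf6-/- and Pcgf3/5/6-/-, Tet2 in Pcgf3/5/6-/-, and Tet3 in Pcgf2/4-/- and Pcgf3/5/6-/-. Where a call was lost, fewer libraries or another fit was used and the cause was not tested. Fitted with its 2 groups alone, Pcgf2/4-/- gave 1146 genes called (3340 in the common fit), 2 of the 9 genes (6), 3 pathway genes (7) and 1 germline gene raised (4), and Pcgf6-/- gave 40 pathway genes (24). The libraries labelled Pcgf3/5/6-/- then gave 9 of the 9 (5) and 46 pathway genes (30), and Pcgf1/2/4-/- against Pcgf1-/- gave 3 (5). With loess offsets Pcgf2/4-/- gave 11 pathway genes and Pcgf1/2/4-/- against Pcgf1-/- gave 3 of the 9. With the wild-type pair summed to 1, Pcgf2/4-/- gave 3 of the 9 and 2 germline genes raised, Pcgf3/5-/- gave 2164 genes (3333), 2 of the 9 (4) and 5 pathway genes (11), Pcgf1/2/4-/- gave 2 of the 9 (4) and 17 pathway genes (28), and 2 genes had the Pcgf1 with Pcgf2/4 interaction (4). The replicate numbers did not pair the samples (21 correlations of deviations, -0.462 to 0.375, 3 over 0.1). With the replicate block, 2 of the 9 were called in Pcgf1/2/4-/- and 2 had the Pcgf1 with Pcgf2/4 interaction. Leaving out each library in turn gave these ranges of calls. All genes: 2955 to 3848 in Pcgf1-/- (4999), 1772 to 4704 in Pcgf2/4-/-, 1602 to 2112 in Pcgf3/5-/-, 5576 to 5706 in Pcgf6-/- (7185), 2852 to 3608 in Pcgf1/2/4-/- (5717) and 6578 to 6812 in Pcgf3/5/6-/- (8241). The 9 genes: 0 to 2, 3 to 6, 2 to 3, 3 to 4, 2 to 2 and 5 to 5 in the same order, 3 to 5 in Pcgf1/2/4-/- against Pcgf1-/- and 3 to 5 against Pcgf2/4-/-, 4 to 5 in Pcgf3/5/6-/- against each of its parts, and 2 to 4 and 2 to 2 for the interactions. Pathway genes: 12 to 20, 3 to 22, 4 to 8, 16 to 19, 14 to 17 and 22 to 23. Germline genes raised: 3 to 7, 1 to 5, 5 to 8, 19 to 19, 2 to 3 and 17 to 18. Neighbouring levels that differ: 7 (without Pcgf6-/- replicate 1) to 18 of 54 (without either Pcgf2/4-/- library; 11). Counts moved over 1.5 times without either wild-type library (all genes in Pcgf1-/-, Pcgf2/4-/-, Pcgf3/5-/- and Pcgf1/2/4-/-, and the 9 genes in those and Pcgf6-/-), without Pcgf1-/- replicate 1, either Pcgf3/5-/- or Pcgf1/2/4-/- library or Pcgf6-/- replicate 2, and for pathway genes in Pcgf2/4-/- without its replicate 2 (22). Differences that turned sign: Dnmt3l in Pcgf1-/- -0.03 without Pcgf1-/- replicate 2, Tet2 in Pcgf1-/- 0.02 with its 2 groups alone, 0.04 with loess and -0.06 to 0.01 over the libraries left out (0.01 without Pcgf1-/- replicate 1), Tdg in Pcgf1-/- -0.54 to 0.26 (0.26 without its replicate 1), Uhrf1 in Pcgf2/4-/- -0.30 with loess, -0.02 without wild-type replicate 1 and -0.24 to 0.22 over the libraries left out (-0.24 without Pcgf2/4-/- replicate 1). With loess Uhrf1 was -0.16 in Pcgf1/2/4-/- and -0.10 in Pcgf3/5/6-/-, and Tet2 was -0.08 in Pcgf1/2/4-/- and -0.12 against Pcgf1-/-. Tet1 in Pcgf1/2/4-/- was 0.04 with RLE factors and with DESeq2, 0.02 with its 2 groups alone and 0.03 without replicate 1, and Tdg there was -0.75 to 0.01 (0.01 without its replicate 1). The share raised among all genes called in Pcgf1/2/4-/- was 38.9% in the common fit and 50.9% with DESeq2, with a median over all genes of -0.11 in the common fit, and 0.122 in Pcgf3/5/6-/- with RLE factors. In Pcgf1-/- it was 42.9% and 54.2% with its 2 groups alone.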
